A study of Danio rerio with 18 samples.

Results

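The anterior brain of opn4 dko zebrafish was compared with that of wild-type zebrafish. opn4 dko fish are homozygous for TALEN-made frameshift mutations in both opn4.1 and opn4xb, a pair of the zebrafish melanopsin genes. Melanopsins are light-sensitive G protein-coupled receptors that carry retinal as their chromophore. The 6 anterior brain libraries, 3 of opn4 dko and 3 of wild-type, were taken by their labels from 18 libraries that also cover the posterior brain and the eye. All fish were adults of the Tübingen strain, about 1.5 years old, kept for 14 days in a 12 h blue light and 12 h dark cycle and sampled at Zeitgeber Time 4 to 6, in the light phase. Each library held the tissue of 3 pooled fish, so the p-values measure the spread between pools. The dissected anterior brain held the telencephalon, the pineal organ and parts of the epithalamus, thalamus and posterior tuberculum, without the olfactory bulbs.

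The pineal organ of fish is itself a light-sensitive tissue. Its photoreceptor cells carry opsins, a transducin-coupled cascade and a retinoid cycle like those of the retina, and they make melatonin from serotonin at night. It sits on the roof of the forebrain close to the choroid plexus, the epithelium that secretes cerebrospinal fluid, and under meninges that can hold pigment cells. Melanopsin-expressing neurons occur in many other parts of the fish brain, so genes of neurons and glia were described alongside genes of the pineal organ.

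The fish were typed by PCR and a digest with an enzyme whose site the mutation removes. The primers are shown because they amplify the targeted site of each gene, and the digest of the product tells the alleles apart. Each is written 5′ to 3′ in lower case with no base capitalised.
opn4.1 forward: ggccaagctttagagtacttactga
opn4.1 reverse: ggctccggcagaatacatag
opn4xb forward: gcgtcaaagcatgattgttc
opn4xb reverse: cactttctggaaacgatctttgc
The opn4.1 product was cut with BsgI and the opn4xb product with EcoNI. A frameshift need not remove the mRNA, so the read counts of these genes say little about the label. opn4.1 had 2.74, 3.64 and 4.34 CPM (reads scaled to a common library size) in the opn4 dko libraries, against 0, 4.95 and 1.60 CPM in the wild-type libraries. The genotypes overlapped, with a log2 fold change of 0.65 ± 0.91 (SE) and an adjusted p of 0.906 in edgeR's quasi-likelihood test. opn4xb had 2.16, 0 and 0 CPM in opn4 dko and 2.11, 0 and 1.37 CPM in wild-type, and was too low to be tested.

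The 6 libraries held between 4266168 and 6946549 assigned reads. Log CPM correlated at 0.915 to 0.9501 between any pair of them, and no pair of replicates agreed within counting noise, so each counted as 1 sample. Of 15341 genes that passed the filter on low counts, 161 passed a false discovery rate (FDR) of 0.05, which is 1.05% of all genes tested. Of these, 94 (0.613%) were higher and 67 (0.437%) were lower in opn4 dko. Genes that the study names were set aside in 5 lists, of melatonin synthesis, phototransduction, light response, homeodomain factors and immune function. They made up 30 of the 94 higher genes and 0 of the 67 lower genes in edgeR's quasi-likelihood test. In the order given, the lists had 5, 13, 17, 1 and 11 tested members, with some genes in more than 1 list. The study named these genes for their change in its own comparisons of this series, those of the pineal organ as higher. The split was therefore largely set in advance. The other 131 genes, 64 higher and 67 lower, are the subject of what follows. They still hold some genes that the study names elsewhere, namely ppm1na, daxx and dusp7 of MAP kinase signalling and mcm7 and cdk9 of cell division. The study also names otx2 as a homeodomain factor, and otx2b, which may be the same gene, is counted among the 131.

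The 64 higher genes had a median log2 fold change of 2.14 and the 67 lower genes one of -1.03, against -0.00 for all genes tested. In 13 of the 64 higher genes every wild-type library held 3 counts or fewer, and 8 of these had no count in wild-type at all. Such genes passed the filter on low counts only through their opn4 dko reads. opn4 dko replicate 1 was the highest opn4 dko library in 36 of the 64 higher genes and in 16 of the 67 lower genes, against 33.6% of all genes tested. opn4 dko replicate 3 was the lowest opn4 dko library in 44 of the 64 higher genes and in 19 of the 67 lower genes. The matching share of all genes tested was not computed. Without opn4 dko replicate 1, 85 genes (54 higher, 31 lower) passed the FDR, and 83 of them were among the 161. Without wild-type replicate 3, 108 genes passed and 103 were shared. Of the 131 genes, 27 higher and 23 lower ones passed the FDR whichever of the 6 libraries was left out, and all kept their sign. Of the 161 called genes, 159 had no overlap between the genotypes, so the separation of a called gene adds little to its call. Separate genotypes were also required of the genes named below for the largest or the most abundant changes.

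Lists of cell type markers showed which tissues each library held. TBR1, a T-box factor of the pallium, had 325, 229 and 308 CPM in opn4 dko and 304, 325 and 267 CPM in wild-type, with 7 to 68 reads in each posterior brain library. emx3, a homeobox gene of the dorsal telencephalon, had 39.7, 41.2 and 39.0 CPM in opn4 dko and 34.1, 55.2 and 35.2 CPM in wild-type, with 0 to 6 reads in each posterior brain library. Both genes, picked from the telencephalon markers after their values were seen, overlapped between the genotypes and did not pass the FDR. The 7 pan-neuronal markers summed to 6688, 6510 and 6626 CPM in opn4 dko against 6718, 6688 and 6576 CPM in wild-type. These sums overlapped between the genotypes.

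The pineal markers differed most among the marker lists. Their sum was 392, 319 and 212 CPM in the opn4 dko libraries, against 11.3, 8.62 and 10.1 CPM in the wild-type libraries, with no overlap. Of 14 markers found, 2 had no count in any wild-type library and 11 could be tested. Of these, 8 passed the FDR, all of them higher, against 0.613% of all genes tested. The tested markers were so low in wild-type that most entered the test through their opn4 dko reads. The study chose several of these markers on the same libraries, so they are not independent evidence. Among the highest markers, saga, a pineal and rod arrestin, had 111, 99.9 and 87.6 CPM in opn4 dko against 0.235, 0.798 and 0.228 CPM in wild-type. The near absence of these markers from all 3 wild-type libraries stands beside every higher gene named below that the pineal organ shares with the retina. Its part in those results was not tested, and a smaller pineal content of the wild-type samples cannot be told apart from lower transcription in their pineal cells.

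Other non-neuronal lists moved with it to a lesser degree. The choroid plexus markers summed to 329, 361 and 266 CPM in opn4 dko, against 192, 172 and 208 CPM in wild-type. Of its 9 tested members 4 passed the FDR, all higher (otx2b, slc4a5, oatx and slc13a1), against 0.613% of all genes tested. As with the other lists, its members were chosen with earlier results of these data known, so the calls are not independent evidence. The melanin and pigment markers summed to 214, 49.8 and 70.8 CPM in opn4 dko and 33.6, 20.6 and 17.8 CPM in wild-type. That sum was carried by pmelb, an amyloid-forming protein of melanosomes and the only called gene of the list, with 183, 35.7 and 34.5 CPM in opn4 dko and 10.1, 3.03 and 3.88 CPM in wild-type (log2 fold change 3.95 ± 0.56, adjusted p = 0.00037 in edgeR's quasi-likelihood test). The sums of the retinal photoreceptor markers were low in both genotypes but did not overlap. They were 49.8, 33.5 and 23.3 CPM in opn4 dko and 15.7, 19.6 and 18.5 CPM in wild-type. Both of the 2 tested members had an unadjusted p under 0.05 in edgeR's quasi-likelihood test, with a median log2 fold change of 1.23. Neither passed the FDR. The same markers summed to 14127 to 18539 CPM in opn4 dko eye libraries and 13636 to 14415 CPM in wild-type ones. Of the 8 retinal photoreceptor markers found, 5 had no read in any wild-type anterior brain library and 3 none in any opn4 dko one. The meninges and fibroblast markers summed to 500, 436 and 483 CPM in opn4 dko and 368, 412 and 389 CPM in wild-type. Of 15 tested members 2 passed, both higher, against 0.613% of all genes tested. The lens markers, near the detection limit, summed to 10.1, 9.33 and 9.59 CPM in opn4 dko and 3.29, 2.55 and 3.66 CPM in wild-type. None of the tested members of the microglia, oligodendrocyte, habenula, hypothalamus, thalamus or erythrocyte lists passed the FDR in edgeR's quasi-likelihood test, against 1.05% of all genes tested. An unadjusted p under 0.05 was reached by 5 of 17 microglia markers, 1 of 12 oligodendrocyte markers and 1 of 8 hypothalamus markers and by none of the rest of these lists, against 9.03% of all genes tested. The microglia markers had a median log2 fold change of 0.54. In 6 of the 17 every opn4 dko library lay above every wild-type one, and in 1 below, against 7.43% and 7.11% of all genes tested.

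**Figure D1:**
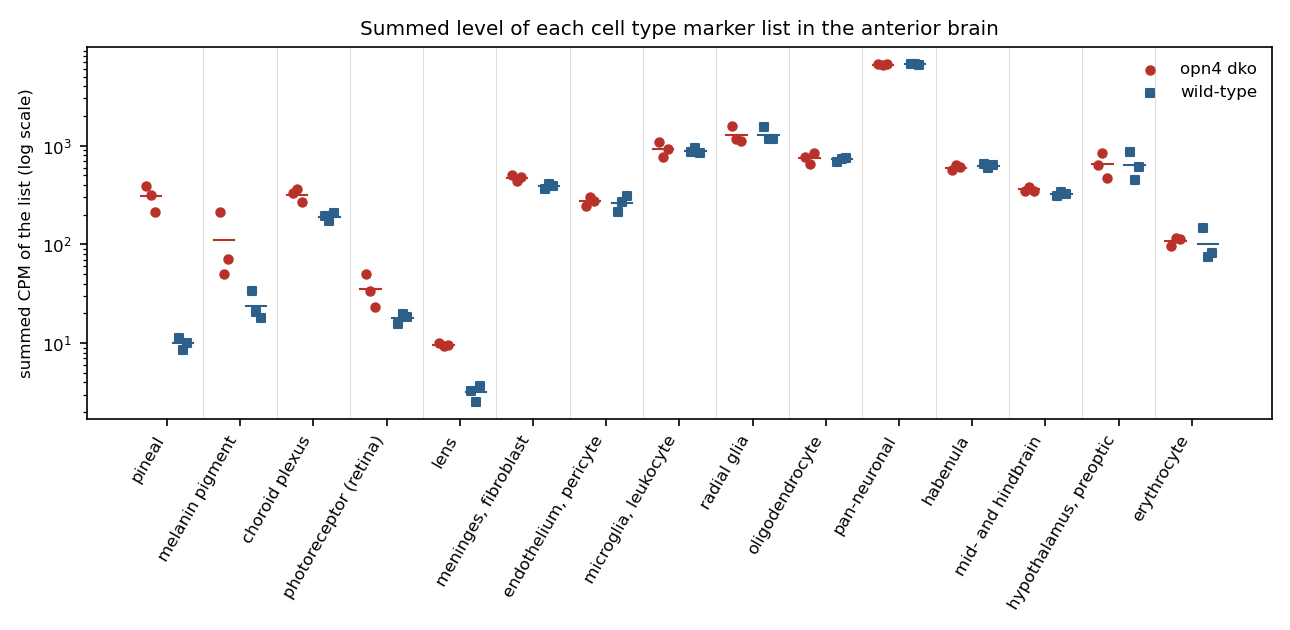
Summed CPM of each cell type marker list (log scale) in the 3 opn4 dko (red circles) and 3 wild-type (blue squares) anterior brain libraries, with short lines at the means. The pineal sums of 212 to 392 CPM in opn4 dko lie apart from 8.62 to 11.3 CPM in wild-type, while the pan-neuronal sums lie together.

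Photoreceptor genes beyond the 5 lists gave the most rises of the function lists. Of 28 tested members of a list of photoreceptor and pineal genes, 10 were higher, 0 were lower and 18 did not pass the FDR (16 members had an unadjusted p under 0.05, as had 9.03% of all genes tested). In 14 of the 28 every opn4 dko library lay above every wild-type library, against 7.43% of all genes tested. Its median was 0.91 on the log2 scale, whether the 3 members without a wild-type count stood at the fitted value or at their lower bound. Those 3 passed the filter on low counts only through their opn4 dko reads, so they could lie only above wild-type. The counts of calls and of separate members are therefore partly set by the filter. The list was drawn up with results of these libraries known and is not independent evidence of its direction.

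Several of the members that rose belong to the light response. cnga1a, a subunit of the cyclic nucleotide-gated channel of rods, had 13.6, 11.2 and 3.42 CPM in opn4 dko and no count in any wild-type library. With the wild-type libraries set at a floor of 3 counts each, the fold was at least 15.1 (adjusted p = 0.00101). gngt2a, the transducin gamma subunit of cones, had 8.36, 2.50 and 2.51 CPM in opn4 dko and no count in wild-type, at least 7.16-fold higher (adjusted p = 0.0181). All wild-type libraries lay at 0 for both genes, and the opn4 dko libraries differed among themselves several-fold. pdcb, a phosducin that binds transducin beta and gamma subunits, was the more even, with 4.33, 6.15 and 7.76 CPM in opn4 dko and no count in wild-type, at least 9.76-fold higher (adjusted p = 0.00409). Here opn4 dko replicate 3 was the highest of its group.

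Genes of proteins that restrain the response rose as well. rcvrnb, a recoverin that holds back opsin kinase in calcium, had 115, 89.4 and 57.7 CPM in opn4 dko and 0.940, 1.60 and 2.97 CPM in wild-type. Its log2 fold change was 5.57 ± 0.35 and its adjusted p 6.53e-09, with the lowest opn4 dko library far above the highest wild-type library. sagb, an S-antigen arrestin that quenches active opsin, had 24.8, 12.3 and 8.45 CPM in opn4 dko against 0.235, 0 and 0.914 CPM in wild-type (log2 fold change 5.37 ± 0.76, adjusted p = 0.00037). Outside these proteins, syt5a, a synaptotagmin, had 29.9, 26.6 and 13.7 CPM in opn4 dko and 0.235, 0 and 0 CPM in wild-type. That single wild-type read gave a ratio of 364 with an exact 95% counting interval of 65.0 to 14417 (adjusted p = 1.45e-06). rcvrnb, sagb and syt5a passed the FDR whichever library was left out.

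A further 3 called members were present in every wild-type library. ppdpfa, a homologue of a pancreatic progenitor factor, had 54.2, 64.0 and 32.6 CPM in opn4 dko and 3.29, 2.07 and 7.08 CPM in wild-type (log2 fold change 3.63 ± 0.38, adjusted p = 9.62e-06). lrit1b, a leucine-rich repeat membrane protein of photoreceptor synapses, had 26.1, 20.9 and 7.53 CPM in opn4 dko and 2.82, 3.19 and 0.914 CPM in wild-type (2.95 ± 0.53, adjusted p = 0.00431). abca4a, the transporter that clears retinaldehyde from photoreceptor discs, had 18.7, 5.46 and 13.9 CPM in opn4 dko and 1.88, 2.55 and 2.06 CPM in wild-type (2.54 ± 0.54, adjusted p = 0.0202). All 3 genes were separate between the genotypes. Without opn4 dko replicate 1 the adjusted p was 0.0984 for lrit1b, 0.295 for abca4a and 0.278 for gngt2a. The gngt2a call was also lost without any 1 wild-type library, and that of abca4a without any 1 wild-type library or opn4 dko replicate 3. GNAT2, the cone transducin alpha subunit, did not pass, with 14.9, 12.7 and 5.93 CPM in opn4 dko and 4.93, 0.798 and 4.57 CPM in wild-type (adjusted p = 0.265).

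Genes of retinoid handling gave 3 higher, 0 lower and 16 uncalled members of 19 tested (0.613% of all genes tested were called higher). Their median log2 fold change was 0.88. Retinoids supply the chromophore of opsins and the ligand of retinoic acid receptors. rdh5, the dehydrogenase that makes 11-cis retinal in the retinal pigment epithelium, had 43.0, 32.5 and 7.76 CPM in opn4 dko and 0, 0 and 0.228 CPM in wild-type, a ratio of 450 with a 95% counting interval of 80.4 to 17825 (adjusted p = 9.59e-06). rbp4, the secreted carrier of retinol, was abundant in both genotypes, with 379, 346 and 207 CPM in opn4 dko and 170, 157 and 127 CPM in wild-type. Its rise of 1.04 ± 0.18 on the log2 scale (adjusted p = 0.00303) left the genotypes apart, with the lowest opn4 dko pool above the highest wild-type pool. rbp5, a cellular retinol-binding protein, had 49.0, 37.6 and 24.7 CPM in opn4 dko and 16.7, 14.2 and 17.1 CPM in wild-type (1.22 ± 0.28, adjusted p = 0.0312, and 0.278 without opn4 dko replicate 1). The rbp5 call held only without opn4 dko replicate 3. The tested retinoic acid and retinoid X receptors (raraa, rarab, rxrga, RXRB and rxrbb) had log2 fold changes between -0.30 and 0.25 and did not pass.

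Transporters of epithelial barriers rose without a matching fall. Of 34 tested members of that list, 5 were higher, 0 lower and 29 uncalled, with a median log2 fold change of 0.19 (0.613% of all genes tested were called higher). slc4a5, oatx and slc13a1 are also among the choroid plexus markers above, so the lists are not separate evidence. slc4a5, a sodium bicarbonate cotransporter of the apical choroid plexus membrane, had 48.9, 44.6 and 30.6 CPM in opn4 dko and 16.7, 11.8 and 20.3 CPM in wild-type (1.36 ± 0.27, adjusted p = 0.0120). oatx, an organic anion transporter, had 71.1, 78.7 and 44.3 CPM in opn4 dko and 8.46, 26.2 and 27.4 CPM in wild-type (1.64 ± 0.32, adjusted p = 0.00983). For both genes the lowest opn4 dko library stood above the highest wild-type library. slc13a1, a sodium sulfate cotransporter, had 53.2, 56.4 and 23.5 CPM in opn4 dko and 12.22, 5.90 and 21.7 CPM in wild-type (1.77 ± 0.38, adjusted p = 0.0221), close to overlap. slc13a3, which carries dicarboxylates, had 36.6, 24.8 and 14.2 CPM in opn4 dko and 3.99, 8.30 and 4.80 CPM in wild-type (2.12 ± 0.39, adjusted p = 0.00579). slc7a8b, a neutral amino acid exchanger, had 65.5, 32.3 and 27.8 CPM in opn4 dko and 9.87, 7.50 and 15.5 CPM in wild-type (1.95 ± 0.34, adjusted p = 0.00361). Both ordered the opn4 dko pools as the pineal sum did.

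Not every choroid plexus gene moved. otx2b, a homeodomain factor of choroid plexus and pineal cells, had 17.3, 19.8 and 13.0 CPM in opn4 dko and 6.58, 4.47 and 1.60 CPM in wild-type (1.98 ± 0.46, adjusted p = 0.0358). The potassium channel KCNJ13 had 31.6, 43.2 and 44.1 CPM in opn4 dko against 51.7, 39.1 and 48.0 CPM in wild-type, and FOXJ1, the factor of motile cilia, had 25.4, 32.8 and 41.8 CPM in opn4 dko against 21.1, 32.9 and 32.9 CPM in wild-type. Both overlapped and did not pass. None of the 6 calls among these transporters and otx2b held in every fit with 1 library left out. Without opn4 dko replicate 1 the adjusted p was 0.116 for slc4a5, 0.142 for slc13a1, 0.124 for slc13a3 and 0.0813 for slc7a8b. Without opn4 dko replicate 2 it was 0.0734 for oatx and 0.201 for otx2b. The oatx and otx2b calls were also lost without opn4 dko replicate 1, and those of slc4a5 and slc13a1 without opn4 dko replicate 2. Without wild-type replicate 2 the calls of slc4a5, slc13a1 and otx2b were lost, as were that of slc13a1 without wild-type replicate 1 and that of otx2b without wild-type replicate 3.

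The largest rises outside the 5 lists were mostly of genes with next to no reads in wild-type. glmnb, which encodes a glomulin, had 13.4, 14.1 and 10.5 CPM in opn4 dko and no count in wild-type, at least 20.3-fold higher (adjusted p = 5.80e-05), and was even across the opn4 dko pools. kera, a keratan sulfate proteoglycan known from the cornea and counted here among connective tissue markers, had 9.52, 3.19 and 7.53 CPM in opn4 dko and no count in wild-type, at least 10.8-fold higher (adjusted p = 0.0032, and 0.0692 without opn4 dko replicate 1). ppm1na, a protein phosphatase, had 6.63, 8.19 and 5.71 CPM in opn4 dko and 1 read in 1 wild-type library, a ratio of 101 with a counting interval of 17.8 to 4044 (adjusted p = 0.00356). None of the 3 overlapped between the genotypes, which was required of the genes with the largest rise.

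Among the 12 with the largest rise were also genes that carry only clone-based names. si:ch211-245j22.3 had 8.80, 28.9 and 13.7 CPM in opn4 dko and 0.235, 0 and 0 CPM in wild-type, a ratio of 235 with a counting interval of 41.8 to 9324 (adjusted p = 3.28e-05). si:ch211-265g22.4 had 8.51, 10.7 and 4.11 CPM in opn4 dko and no count in wild-type, at least 12.5-fold higher (adjusted p = 0.00171). Neither had a read in any of the 6 eye libraries, whereas glmnb had 315 to 634 reads and ppm1na 1403 to 3037 reads in each eye library. si:dkey-72l14.3 (at least 6.97-fold higher, adjusted p = 0.0183) and zgc:171695 (at least 5.46-fold higher, adjusted p = 0.0312) had 10 to 54 reads in the opn4 dko libraries and none in wild-type. They lost the call without opn4 dko replicate 1, at adjusted p of 0.260 for si:dkey-72l14.3 and 0.278 for zgc:171695, and also without any 1 wild-type library, and zgc:171695 without any 1 library at all.

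**Figure D2:**
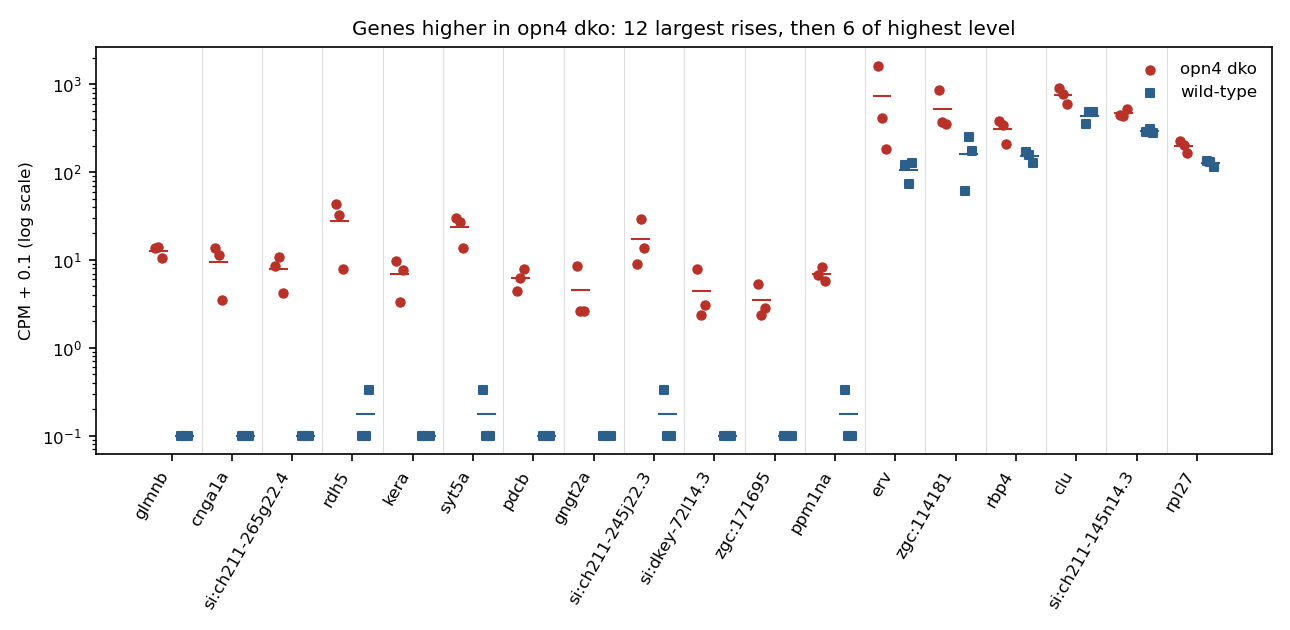
CPM + 0.1 (log scale) of the 12 genes with the largest rise and of the 6 risen genes with the highest level, in opn4 dko (red circles, left) and wild-type (blue squares, right) anterior brain libraries, with short lines at the means. The 12 on the left lie at 0 or 1 read in each wild-type library, and the 6 on the right are present in every library.

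The abundant risen genes changed less. clu, the secreted chaperone and apolipoprotein clusterin, had 903, 766 and 599 CPM in opn4 dko and 351, 484 and 477 CPM in wild-type (log2 fold change 0.79 ± 0.14, adjusted p = 0.00486, and 0.0520 without opn4 dko replicate 1). rpl27, a protein of the large ribosomal subunit, had 225, 203 and 166 CPM in opn4 dko and 134, 131 and 115 CPM in wild-type (0.65 ± 0.14, adjusted p = 0.0221). The rpl27 call was lost without either of opn4 dko replicates 1 and 2 or wild-type replicates 2 and 3, with an adjusted p of up to 0.165. si:ch211-145n14.3 had 451, 439 and 516 CPM in opn4 dko and 284, 313 and 280 CPM in wild-type (0.68 ± 0.11, adjusted p = 0.00211) and passed in every fit with 1 library left out. It was also the only one of these genes whose opn4 dko replicate 3 was the highest.

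The pools of 1 genotype differed widely for a pair of the abundant genes. erv had 1634, 408 and 181 CPM in opn4 dko and 121, 72.9 and 126 CPM in wild-type (2.81 ± 0.48, adjusted p = 0.00319). The mean of 741 ± 781 CPM (SD, n = 3) in opn4 dko rested on replicate 1. The erv call was not made by DESeq2. It held with any 1 library left out (adjusted p of up to 0.0484), at log2 fold changes of 1.47 to 3.27. zgc:114181 had 864, 368 and 352 CPM in opn4 dko and 60.4, 252 and 174 CPM in wild-type (1.70 ± 0.35, adjusted p = 0.0161), and lost the call without opn4 dko replicate 1 (adjusted p = 0.165), without wild-type replicate 3 and with DESeq2.

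Glial and vascular lists gave single genes in either direction. vim, the intermediate filament vimentin of radial glia, had 193, 169 and 128 CPM in opn4 dko and 114, 79.5 and 92.5 CPM in wild-type (0.78 ± 0.17, adjusted p = 0.0202, and 0.167 without opn4 dko replicate 1). ndrg2, a protein of astroglia in mammals, had 102, 125 and 143 CPM in opn4 dko and 250, 234 and 245 CPM in wild-type. The genotypes were far apart for ndrg2, which fell by 0.98 ± 0.14 on the log2 scale (adjusted p = 0.000358) and passed in every fit with 1 library left out. The sum of the radial glia markers did not separate the genotypes, at 1563, 1169 and 1116 CPM in opn4 dko and 1538, 1158 and 1165 CPM in wild-type. plvapa, a protein of fenestrated endothelium, had 13.8, 10.9 and 7.76 CPM in opn4 dko and 2.82, 0.638 and 2.06 CPM in wild-type (2.60 ± 0.60, adjusted p = 0.0376, and 0.292 without opn4 dko replicate 1). It was the only called gene of 15 endothelial and pericyte markers, against 1.05% of all genes tested. The vim and plvapa calls were also lost without opn4 dko replicate 2 or without wild-type replicates 2 or 3.

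In the list of glial lipid handling, 2 of 36 tested members rose and 2 fell, against 0.613% and 0.437% of all genes tested. The list median log2 fold change was 0.07. Besides clu, pla1a, a phospholipase that acts on phosphatidylserine, rose, with 40.1, 37.3 and 25.1 CPM in opn4 dko and 7.75, 12.6 and 2.06 CPM in wild-type (2.16 ± 0.41, adjusted p = 0.00714, and 0.0674 without opn4 dko replicate 1). slc27a1b, a fatty acid transporter, fell, with 32.0, 23.9 and 39.7 CPM in opn4 dko and 57.1, 68.9 and 67.4 CPM in wild-type (-1.02 ± 0.21, adjusted p = 0.0179). acot7, a long-chain acyl-CoA thioesterase of neurons, fell by 0.86 ± 0.18 on the log2 scale (adjusted p = 0.0189). Both falls were lost without either of opn4 dko replicates 1 and 2 or wild-type replicates 2 and 3, with adjusted p of up to 0.129 for acot7 and 0.127 for slc27a1b.

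Every gene that fell had at least 26 reads in each wild-type library. The largest fall was that of VWA5A, a von Willebrand factor A domain protein, with 0.433, 0.228 and 0.456 CPM in opn4 dko and 6.11, 7.34 and 11.9 CPM in wild-type. Its log2 fold change was -4.39 ± 0.79 (adjusted p = 0.00458, and 0.0727 without wild-type replicate 3). ptk2ba, a calcium-regulated focal adhesion kinase, had 1.15, 0.683 and 3.195 CPM in opn4 dko and 22.1, 28.9 and 22.2 CPM in wild-type (-3.88 ± 0.46, adjusted p = 5.80e-05). si:ch211-220f12.4 had 1.15, 2.28 and 3.195 CPM in opn4 dko and 24.2, 30.2 and 33.4 CPM in wild-type (-3.77 ± 0.39, adjusted p = 9.62e-06). All 3 were near the detection limit in opn4 dko and well above it in every wild-type pool.

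A second tier fell by a log2 of about 2 to 3. znf1109, a zinc finger protein, had 3.32, 3.64 and 0.456 CPM in opn4 dko and 16.9, 18.7 and 34.5 CPM in wild-type (-3.19 ± 0.50, adjusted p = 0.00124). si:ch211-63p21.1 had nearly equal wild-type pools, with 16.9, 31.4 and 22.4 CPM in opn4 dko and 98.2, 98.8 and 103 CPM in wild-type (-2.10 ± 0.21, adjusted p = 6.26e-06). acy1, the aminoacylase that deacetylates amino acids, had 1.87, 2.50 and 2.51 CPM in opn4 dko and 21.1, 7.98 and 12.8 CPM in wild-type (-2.60 ± 0.51, adjusted p = 0.0102, and 0.1253 without wild-type replicate 1). All 3 were separate between the genotypes, as the choice of these genes required. si:dkey-196n19.2 (-2.79 ± 0.57, adjusted p = 0.0159) and ggact.3, a gamma-glutamylamine cyclotransferase (-2.12 ± 0.42, adjusted p = 0.0118), also fell. The si:dkey-196n19.2 call was lost without either of opn4 dko replicates 1 and 2 or wild-type replicates 2 and 3 (adjusted p of up to 0.0944). The ggact.3 call was lost without either of opn4 dko replicates 1 and 2 or wild-type replicate 1 (up to 0.0807), and that of acy1 also without opn4 dko replicate 1.

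Enzymes of the nucleus were among the steadier falls. mcm7, a subunit of the replicative DNA helicase, had 15.6, 11.4 and 17.8 CPM in opn4 dko and 51.2, 65.6 and 81.8 CPM in wild-type (-2.15 ± 0.24, adjusted p = 3.28e-05). It was the only called gene of 23 tested members of a cell division list, against 1.05% of all genes tested. The list median log2 fold change was 0.02. cdk9, the kinase that releases paused RNA polymerase, had 24.9, 16.8 and 22.4 CPM in opn4 dko and 65.8, 63.8 and 78.6 CPM in wild-type (-1.69 ± 0.21, adjusted p = 0.000108). It was the only called gene of 15 transcriptional cyclin-dependent kinases and their partners, against 1.05% of all genes tested. Both passed whichever library was left out.

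**Figure D3:**
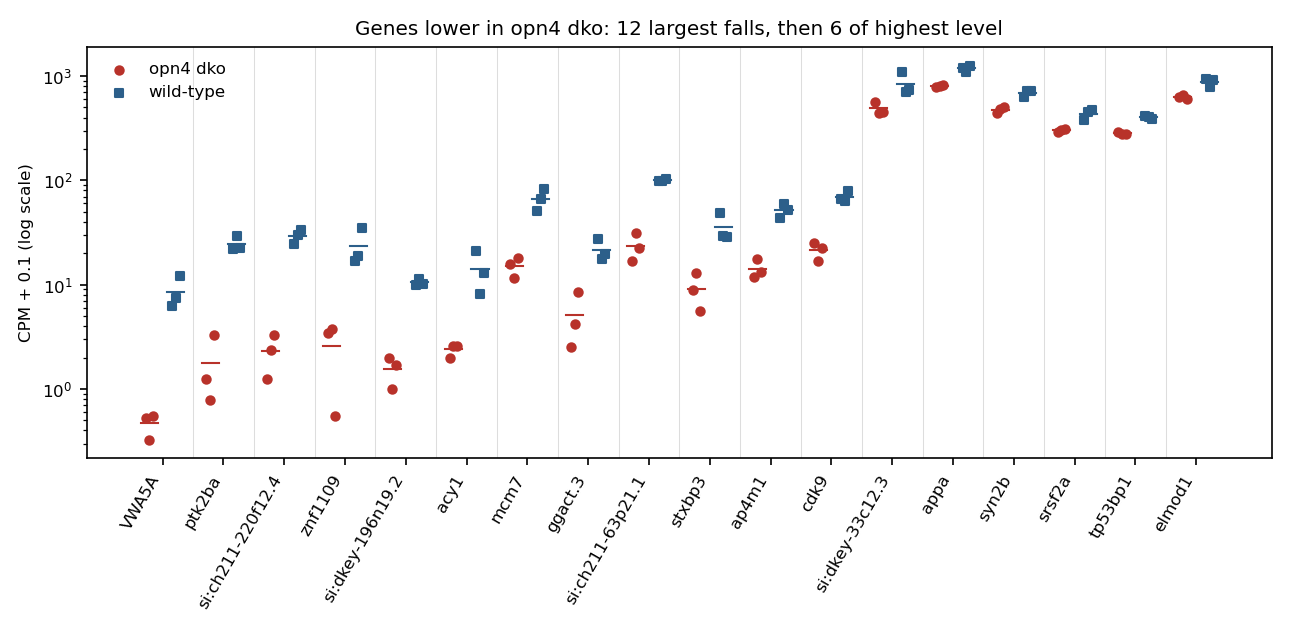
CPM + 0.1 (log scale) of the 12 genes with the largest fall and of the 6 fallen genes with the highest level, in opn4 dko (red circles, left) and wild-type (blue squares, right) anterior brain libraries, with short lines at the means. Separate genotypes were required of every gene shown, and no opn4 dko library is the lowest throughout.

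Synaptic vesicle genes gave falls and no rise. Of 44 tested members, 4 were lower, 0 were higher and 40 did not pass in edgeR's quasi-likelihood test (0.437% of all genes tested were called lower). An unadjusted p under 0.05 was reached by 9 members, against 9.03% of all genes tested, and the median was -0.09 on the log2 scale. In 12 members every opn4 dko library lay below every wild-type library, against 7.11% of all genes tested, and in 0 members above. rab27b, a GTPase of vesicle docking, had 23.5, 56.2 and 39.3 CPM in opn4 dko and 107, 117 and 151 CPM in wild-type (-1.67 ± 0.23, adjusted p = 0.000358). stxbp3, a Munc18 protein that binds syntaxins, had 8.80, 12.7 and 5.48 CPM in opn4 dko and 48.9, 28.9 and 28.8 CPM in wild-type (-1.97 ± 0.33, adjusted p = 0.00224). Both were clearly separate and passed with any 1 library left out.

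The more abundant vesicle genes fell less. vamp2, the synaptobrevin of the fusion complex, had 245, 248 and 249 CPM in opn4 dko and 300, 472 and 413 CPM in wild-type (-0.68 ± 0.14, adjusted p = 0.0159). The opn4 dko pools were nearly equal while the wild-type pools spread, and the call held only without wild-type replicate 1 (adjusted p of up to 0.154 without each of the others). syn2b, a synapsin that tethers vesicles, had 442, 480 and 509 CPM in opn4 dko and 628, 720 and 715 CPM in wild-type (-0.53 ± 0.11, adjusted p = 0.0123). Its call was lost without either of opn4 dko replicates 1 and 2 or wild-type replicates 2 and 3 (up to 0.0857).

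appa, one of the amyloid beta precursor proteins of neurons, was the most abundant gene that fell. It had 785, 804 and 818 CPM in opn4 dko and 1198, 1097 and 1256 CPM in wild-type, a mean of 802 ± 16.7 CPM in opn4 dko against 1184 ± 80.8 CPM in wild-type (SD, n = 3 each). Its log2 fold change of -0.56 ± 0.09 (adjusted p = 0.00249) was small but clear of the spread, and the call held whichever library was left out. appa was the only called gene among 33 tested genes of its synaptic surroundings, against 1.05% of all genes tested. Their median log2 fold change was -0.13. The opn4 dko libraries all lay below the wild-type libraries in 11 of the 33 and above in 0, against 7.11% and 7.43% of all genes tested. An unadjusted p under 0.05 in edgeR's quasi-likelihood test was reached by 10 of the 33, against 9.03% of all genes tested. The list of metabotropic receptor genes, which also held plcg1, not itself a receptor, gave 2 falls among 24 tested, against 0.437% of all genes tested. grm5b, a group I metabotropic glutamate receptor, had 11.2, 12.5 and 3.88 CPM in opn4 dko and 26.1, 36.1 and 24.7 CPM in wild-type (-1.64 ± 0.36, adjusted p = 0.0229). plcg1, a phospholipase C, fell by 0.52 ± 0.12 on the log2 scale (adjusted p = 0.0463) to 130, 133 and 139 CPM in opn4 dko, against 187, 188 and 204 CPM in wild-type. The plcg1 call was lost without any 1 library (adjusted p of up to 0.212), and that of grm5b without either of opn4 dko replicates 1 and 3 or wild-type replicates 2 and 3 (up to 0.175).

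Membrane traffic and organelle genes also contributed single falls. Of 57 lysosome genes tested, 3 were lower and 0 higher, against 0.437% and 0.613% of all genes tested. An unadjusted p under 0.05 was reached by 9 of the 57, against 9.03% of all genes tested. The median log2 fold change was 0.05. The opn4 dko libraries all lay above wild-type in 6 members and below in 5, against 7.43% and 7.11% of all genes tested. ap4m1, a subunit of the AP-4 adaptor that carries proteins out of the trans-Golgi network, had 11.7, 17.5 and 13.2 CPM in opn4 dko and 43.0, 59.5 and 52.1 CPM in wild-type (-1.87 ± 0.25, adjusted p = 0.000188). hexa, the alpha subunit of beta-hexosaminidase, had 7.50, 9.10 and 10.04 CPM in opn4 dko and 22.8, 23.8 and 21.2 CPM in wild-type (-1.35 ± 0.31, adjusted p = 0.0312). ap4m1 passed with any 1 library left out, and hexa failed in each such fit (up to 0.167). aga, aspartylglucosaminidase, passed (adjusted p = 0.0348) although its genotypes overlapped, with 18.2, 13.9 and 12.097 CPM in opn4 dko and 52.6, 85.2 and 14.4 CPM in wild-type. Its call held only without wild-type replicate 3 and was not made by DESeq2, and the adjusted p rose to 0.344 without wild-type replicate 2.

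In the endoplasmic reticulum and mitochondria the falls were smaller. camlg, a receptor for tail-anchored membrane proteins, had 49.2, 47.1 and 41.1 CPM in opn4 dko and 73.1, 102 and 105 CPM in wild-type (-1.03 ± 0.18, adjusted p = 0.00361). reep2, which shapes endoplasmic reticulum tubules, had 106, 105 and 89.2 CPM in opn4 dko and 196, 163 and 159 CPM in wild-type (-0.79 ± 0.14, adjusted p = 0.00423). They were the called 2 of 42 tested genes of protein export, against 1.05% of all genes tested. fundc2, a protein of the outer mitochondrial membrane, had 53.9, 43.0 and 48.2 CPM in opn4 dko and 97.7, 108 and 91.6 CPM in wild-type (-1.03 ± 0.16, adjusted p = 0.00142). fundc2 was the only one called of 31 tested mitophagy genes, against the same 1.05%. All 3 were separate between the genotypes and passed with any 1 library left out.

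Among 61 tested cilium genes 2 fell and 0 rose past the FDR, against 0.437% and 0.613% of all genes tested. The list median was 0.09 on the log2 scale. The opn4 dko libraries all lay above wild-type for 8 members and below for the 2 that fell, against 7.43% and 7.11% of all genes tested. An unadjusted p under 0.05 in edgeR's quasi-likelihood test was reached by 7 members, against 9.03% of all genes tested. tmem107, a protein of the ciliary transition zone, had 62.7, 64.9 and 55.5 CPM in opn4 dko and 110, 102 and 127 CPM in wild-type (-0.89 ± 0.16, adjusted p = 0.00399). ak7a, an adenylate kinase of motile cilia, had 13.1, 17.1 and 15.5 CPM in opn4 dko and 30.5, 42.1 and 54.8 CPM in wild-type (-1.48 ± 0.26, adjusted p = 0.00426, and 0.0525 without wild-type replicate 3). Both were separate. The falls of tmem107 and ak7a were not shared by the list as a whole. They stand beside a choroid plexus sum that was higher in opn4 dko.

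Splicing and signalling lists held genes that moved in opposite directions. isy1, a component of the catalytic spliceosome, rose in all 3 pools, with 166, 172 and 178 CPM in opn4 dko and 86.7, 91.6 and 76.1 CPM in wild-type (1.02 ± 0.14, adjusted p = 0.000202). srsf2a, a serine- and arginine-rich splicing factor, fell, with 290, 305 and 309 CPM in opn4 dko and 380, 448 and 469 CPM in wild-type (-0.52 ± 0.11, adjusted p = 0.0239). The isy1 call held with any 1 library left out and that of srsf2a only without wild-type replicate 1 (up to 0.154). These were the called 2 of 59 splicing genes, against 1.05% of all genes tested.

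Among 47 tested genes of MAP kinase signalling, ppm1na and daxx rose and dusp7 and ntrk3a fell (1.05% of all genes tested were called). daxx, a death domain-associated protein and histone chaperone, had 29.3, 19.3 and 26.9 CPM in opn4 dko and 7.28, 13.2 and 7.77 CPM in wild-type (1.40 ± 0.32, adjusted p = 0.0356, and 0.224 without opn4 dko replicate 1). dusp7, a phosphatase of MAP kinases, had 64.9, 63.5 and 74.9 CPM in opn4 dko and 114, 102 and 115 CPM in wild-type (-0.71 ± 0.15, adjusted p = 0.0206). ntrk3a, a receptor for neurotrophin, had 58.7, 83.1 and 66.0 CPM in opn4 dko and 107, 110 and 148 CPM in wild-type (-0.82 ± 0.17, adjusted p = 0.0189). All 3 were separate between the genotypes. Without 1 library the adjusted p reached 0.141 for dusp7, whose call was lost without opn4 dko replicates 1 or 2 or wild-type replicates 1 or 3. It reached 0.163 for ntrk3a, lost without opn4 dko replicates 1 or 3 or wild-type replicate 3. The daxx call was also lost without opn4 dko replicate 3 or wild-type replicates 1 or 3.

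The remaining abundant falls were of elmod1, si:dkey-33c12.3 and tp53bp1. si:dkey-33c12.3 had 568, 441 and 456 CPM in opn4 dko and 1092, 709 and 733 CPM in wild-type (-0.79 ± 0.15, adjusted p = 0.00565, and 0.0626 without opn4 dko replicate 2). elmod1, a GTPase-activating protein of small GTPases, had 626, 659 and 599 CPM in opn4 dko and 941, 782 and 914 CPM in wild-type (-0.49 ± 0.10, adjusted p = 0.0198). tp53bp1, which marks DNA double-strand breaks, had 290, 278 and 281 CPM in opn4 dko and 410, 408 and 385 CPM in wild-type (-0.50 ± 0.11, adjusted p = 0.0212). The genotypes were separate for all 3, as the choice of these genes required. The call of elmod1 held only without wild-type replicate 2 (up to 0.108), and that of tp53bp1 was lost without any 1 library (up to 0.140).

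Circadian clock and immediate early genes gave no call by edgeR's quasi-likelihood test. Of 39 tested clock genes 0 passed, against 1.05% of all genes tested, a share at which few or no calls would be looked for in lists this short. An unadjusted p under 0.05 was reached by 4 of them, against 9.03% of all genes tested. Their log2 fold changes had a median of -0.07 and a range of -0.60 to 0.71. per2, a light-induced clock gene in zebrafish, had a log2 fold change of -0.27 (adjusted p = 0.69). Of 17 immediate early genes 0 passed, against the same 1.05%, and 2 had an unadjusted p under 0.05, with a median of -0.22. Both lists were sampled within 1 window of the light phase.

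**Figure D4:**
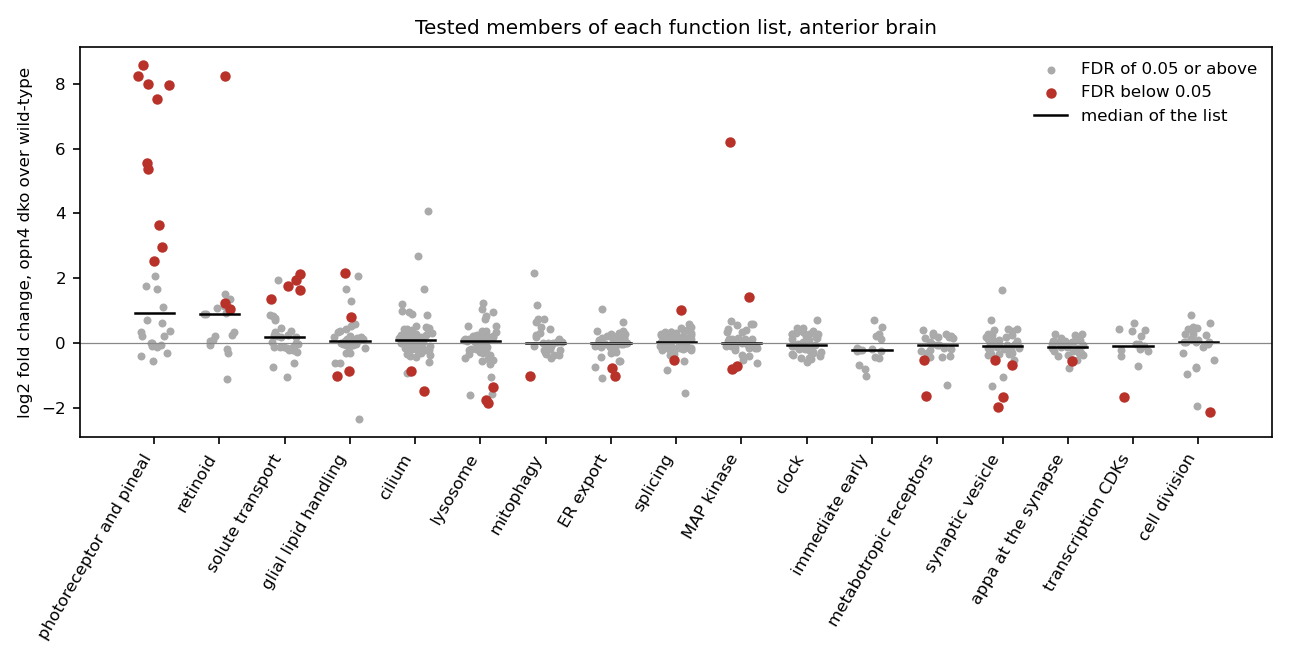
Log2 fold change (opn4 dko over wild-type) of each tested member of the function lists, leaving out genes of the 5 lists, with genes past the FDR of 0.05 in red, the others in grey and the list median as a black line. Called genes above 2 lie in the photoreceptor, retinoid, solute transport, glial lipid and MAP kinase lists, and outside the photoreceptor and retinoid lists the medians lie between -0.22 and 0.19.

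The called genes were followed in the other tissues of the same genotypes. Of the 67 lower genes, all were tested in the posterior brain, 66 had the same sign there (elmod1, at 0.00, did not) and 19 also passed the FDR. Their posterior brain values had a median of -0.85 (log2). Over all genes lower in the anterior brain, 59.0% were lower in the posterior brain, and 0.357% of all genes tested there passed. In the eye 56 of 61 were lower, against 52.7% of all genes lower in the anterior brain, with a median of -0.61, and si:ch211-63p21.1 was the single called gene (0.0254% of all genes tested in the eye passed). mcm7 had a posterior brain log2 fold change of -2.58 (adjusted p = 3.37e-07) and an eye value of -0.74 (adjusted p = 0.993). ptk2ba had -2.91 (adjusted p = 0.0277) in the posterior brain and -2.52 (adjusted p = 0.993) in the eye.

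Of the 64 higher genes outside the 5 lists, 44 could be tested in the posterior brain. There 35 were higher, against 60.2% of all genes higher in the anterior brain, and 10 passed, with a median of 0.54 against 1.69 for the same genes in the anterior brain. In the eye 37 of 55 were higher, against 59.4% of all genes higher in the anterior brain, 0 passed by edgeR's quasi-likelihood test, and the median was 0.13 against 1.98 for the same genes in the anterior brain. The genes were chosen by their anterior brain values, which raises the anterior medians. The medians are therefore not on equal terms between the tissues. isy1 (posterior brain 1.18, adjusted p = 0.0131) and si:ch211-145n14.3 (0.74, adjusted p = 0.0179) were among those that passed in both brain parts. Of the 10 called members of the photoreceptor list, rcvrnb had 0 to 10 reads in each eye library and no eye value. The other called members instead had eye values from -0.38 for cnga1a to 0.18 for syt5a. cnga1a had 647 to 1220 and syt5a 1096 to 3533 reads in the eye libraries. Tissues of the same fish may have entered the libraries of several tissues, so the tissues are not known to be independent samples.

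The posterior brain reads of the genes nearly absent from the wild-type anterior brain varied by pool. glmnb had 0, 23 and 0 reads in the posterior brain of opn4 dko and 2, 0 and 0 in that of wild-type. rdh5 had 0, 62 and 49 reads in opn4 dko libraries, against 1, 0 and 0 reads in wild-type ones. syt5a instead had 48, 40 and 27 reads in opn4 dko libraries, against 22, 0 and 13 reads in wild-type ones. The pineal marker sum of the posterior brain libraries was 24.3 to 138 CPM in opn4 dko and 23.8 to 30.4 CPM in wild-type.

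**Figure D5:**
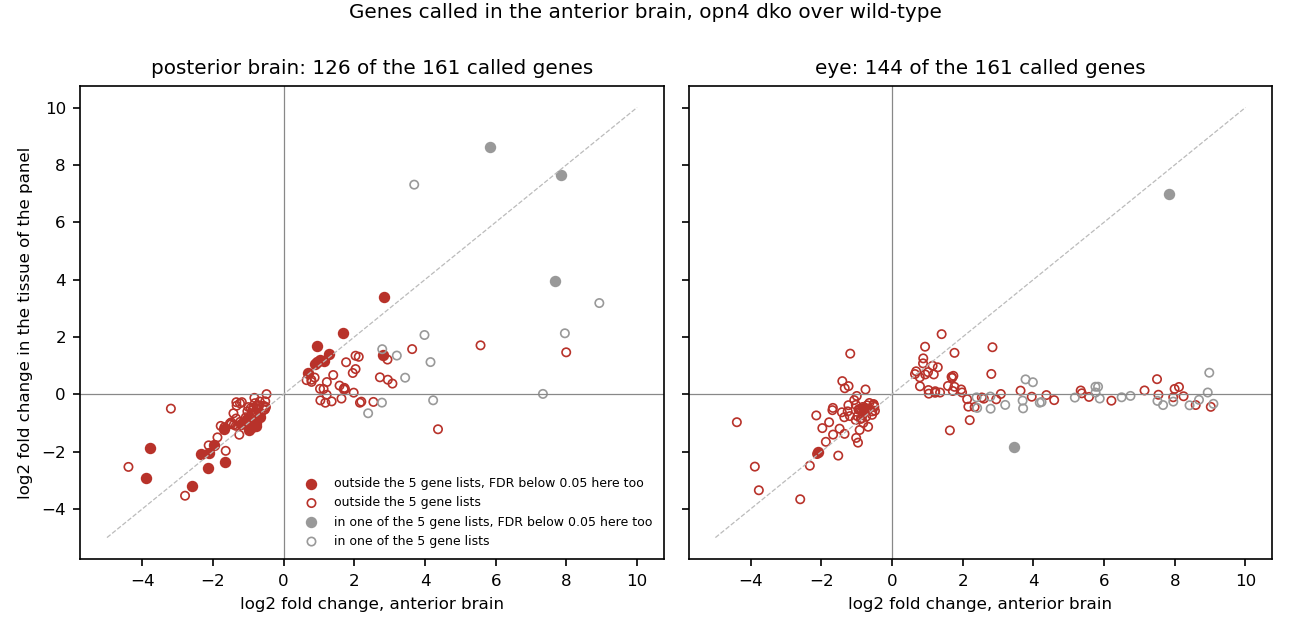
Log2 fold change (opn4 dko over wild-type) in the posterior brain (left) and the eye (right) against that in the anterior brain, for the called genes that could be tested in each, with genes outside the 5 lists in red, genes of these lists in grey and filled points past the FDR of 0.05 in the tissue of the panel. The dashed line marks equality, and the higher genes outside the 5 lists have medians of 0.54 (left panel) and 0.13 (right panel).

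The difference between the genotype effects of the brain parts was tested itself, in 1 model of the 12 brain libraries. Of 16848 genes, 1 passed the FDR (0.00594%) and 738 had an unadjusted p under 0.05 (4.38%). Among the 64 higher genes 28 had such an unadjusted p, and among the 67 lower genes 8 did. The anterior libraries that chose the genes also enter this test, so both counts are descriptions. The difference for rcvrnb was 3.91 (unadjusted p = 9.24e-05), for syt5a 6.49 (unadjusted p = 6.13e-05), for pla1a 2.47 (unadjusted p = 0.000123), for otx2b 1.93 (unadjusted p = 4.07e-05) and for rbp4 1.26 (unadjusted p = 3.47e-05). None of these 5 passed the FDR. The difference was -0.01 for appa (unadjusted p = 0.972), -0.05 for si:ch211-63p21.1 (0.861) and 0.01 for syn2b (0.953), values that do not show that the effects were equal.

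Called genes next to the mutated loci were looked for by gene order in the RefSeq annotation of assembly GRCz12tu. Among the 20 genes on each side, 0 of 21 tested neighbours of opn4.1 and 0 of 10 tested neighbours of opn4xb passed in edgeR's quasi-likelihood test, against 1.2% of all placed genes. Only spef2, a sperm flagellar gene near opn4xb, was under an unadjusted 0.05 among them. Within 100 genes on each side 2 of 102 tested neighbours of opn4.1 passed, colec12, a scavenger receptor, at 47 genes and tep1, a telomerase-associated protein, at 95 genes, both higher. On the whole chromosomes 7 of 494 and 4 of 625 tested genes passed.

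The lower genes lay near one another more often than other genes did. Of 53 lower genes that could be placed, 17 (32.1%) had another lower gene within 10 genes, whereas 3.09% of the other tested genes had a lower gene that near. For the higher genes the shares were 8 of 78 (10.3%) and 6.18%. With windows of 5, 20 and 50 genes the higher genes gave 10.3%, 12.8% and 28.2%, against 3.16%, 11.4% and 25.5% of the others. The excess of the higher genes therefore depends on the window. The window of 10 genes was chosen after the data were seen, and with windows of 5, 20 and 50 genes the shares of lower genes were 26.4%, 39.6% and 50.9%, against 1.69%, 5.33% and 12.4% of the others. In each of these windows the lower genes exceeded the others by more than the higher genes did. These shares carry no test.

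The neighbours that follow, where not named above, were picked after their values were seen. vamp2, ap4m1 and rnasekb, a ribonuclease, lay within 6 genes of one another, with log2 fold changes of -0.68, -1.87 and -0.82. stxbp3 (-1.97) and rabggta, the alpha subunit of Rab geranylgeranyl transferase (-1.42, adjusted p = 0.00104), were direct neighbours. ndrg2 (-0.98), zgc:55733 (-0.74) and si:ch211-63p21.1 (-2.10) lay within 3 genes. txnl1, a thioredoxin-like protein (-0.93), and rab27b (-1.67) were 4 genes apart. These are 4 separate clusters in which every called gene was lower.

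Among the clusters with only higher genes was one of 4 genes. flot1a, a flotillin of membrane rafts (0.88), znf384l (0.94), daxx (1.40) and mhc1uba, a class I major histocompatibility gene in the immune list (7.83), lay within 8 genes. For flot1a and znf384l the posterior brain values were 0.58 (adjusted p = 0.136) and 1.12 (adjusted p = 0.0431). In a further cluster the directions were mixed, with dusp7 (-0.71), mettl1, a tRNA methyltransferase (-1.52), isy1 (1.02) and syn2b (-0.53) within 22 genes.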

How the data were processed

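Poly(A) RNA, bound to oligo-dT beads from total RNA of pooled tissue, was sequenced by the authors, and reads were counted per Ensembl gene (release 86, GRCz10) with featureCounts in reverse-stranded mode at a mapping quality of 20. The deposited commands name HISAT as the aligner and the paper's methods NextGenMap. The deposited table holds whole-number counts per gene, made by the authors without normalisation, and results of the authors' own comparisons were not used. The 6 anterior brain columns were matched to samples by name.

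Counts were analysed in R 4.3.3 with edgeR 4.0.16: TMM normalisation, filterByExpr (minimum count 10, minimum total 15), glmQLFit and glmQLFTest on genotype, and Benjamini-Hochberg adjustment over the 15341 genes kept, with an FDR of 0.05. Every adjusted p is from this quasi-likelihood test unless another is named. Fold changes are opn4 dko over wild-type with a prior count of 0.125, and CPM use TMM-scaled library sizes. The SE of a log2 fold change was derived from the test, as its absolute value over the square root of the F statistic. A gene without a count in wild-type is given its fold against a floor of 3 counts per library. With 1 to 3 wild-type counts in all, the ratio has an exact (Clopper-Pearson) 95% interval, and such intervals and floors cover counting error only. The interaction was fitted on the 12 brain libraries. At 4266168 to 6946549 reads a library, genes under the filter could not be tested. Alternatives included the edgeR exact test, DESeq2 1.42.0, other scalings, filters and sample sets, a sequencing lane term and leaving out each library.

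Named genes, outside the 5 lists set aside, had a symbol, passed the FDR, reached 10 counts in all libraries of whichever genotype was higher and had separate genotypes: the 12 largest rises, the 12 largest falls and the 6 risen and 6 fallen genes of highest mean CPM, with every called member of a list, the melanopsin genes and the highest cell type markers. Symbols were found for 26166 of 31624 identifiers, and 1016 of 1322 list entries were matched. The lists and the genes described were chosen with earlier results of these data known. The computation was tested on simulated data. One marker list sum is not reported here.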

Additional observations from a re-analysis of the deposited data

Results flagged for a closer look

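tph2, which encodes the tryptophan hydroxylase of serotonin synthesis, was the only gene whose genotype effect differed between the anterior and the posterior brain past the FDR. The difference on the log2 scale was 7.30 ± 1.16 (SE, adjusted p = 0.0244 in edgeR's quasi-likelihood test on 12 brain libraries). In the anterior brain it had 129, 81 and 33 reads in opn4 dko and 1, 0 and 0 reads in wild-type. That single wild-type read gave an anterior ratio of 230 with a counting interval of 41.0 to 9137. The size of the difference between the brain parts is therefore known only loosely. In the posterior brain tph2 had 20, 23 and 14 reads in opn4 dko and 23, 13 and 16 reads in wild-type. tph2 is among the genes of melatonin synthesis that the study names. The pineal marker sum, of which it is a part, was 392, 319 and 212 CPM in the same anterior opn4 dko libraries.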

How the results depend on the processing

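The 161 calls were all among those of the edgeR exact test (272), of the fit without a filter (355) and of the deposited edgeR code (284), and 156 were among those of DESeq2 (262). The cause of the larger counts was not tested. Leaving out 1 anterior brain library gave 85 genes (without opn4 dko replicate 1) to 186 genes (without wild-type replicate 1). RLE size factors gave 162 genes (95 higher, 67 lower). Library sizes set by actb1 gave 125, of which 90 were higher and 35 lower (a median of all genes of -0.05), and 27 named genes lost their call, among them appa, ndrg2, isy1, rbp4, clu, vamp2 and syn2b. At least 10 counts in every library gave 113 (49 higher, 64 lower), all 18 libraries 116 (94 higher, 22 lower, 79 of the 161 shared), and a minimum of 1 for the size of the log2 fold change 121. Chosen after seeing the data, sequencing lane as a term gave 190, with 160 shared, and the 4 libraries of 1 lane gave 113, with 87 shared. The fit of all 18 libraries lost the call of 35 named genes and that of 4 libraries the call of 36. With the replicate number as a block 181 genes passed and 150 were shared. Same-numbered pools correlated at 0.04, -0.03 and 0.03, so the numbers were not taken as pairs. The 1 gene of the interaction stayed 1 with RLE factors, and leaving out 1 anterior library gave 0 to 6 genes. With at least 10 counts in every library 0 genes passed. tph2, with 1, 0 and 0 reads in the anterior wild-type libraries, could not enter that fit, so it says nothing about tph2. No named gene changed sign under any of these alternatives, and 39 of them lost the call without opn4 dko replicate 1. With 3 pools a side and 4266168 to 6946549 reads, small changes of low genes could not be resolved.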
